A study of Mus musculus with 4 samples.

Results

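The deposited table of this series listed 26 genes of transporters, ion channels and pumps among 920 genes in all. They were found by gene symbol alone, as every listed gene whose name starts like a solute carrier (Slc, Slco), an ABC transporter, a potassium, sodium, calcium, chloride or TRP channel, an anoctamin, a bestrophin, an aquaporin, an ATP-driven pump (Atp), or a glutamate, GABA, acetylcholine or P2X receptor channel. The samples were 46C mESCs, a mouse embryonic stem cell line, infected with *Rhox6* shRNA lentivirus (2 libraries) or *scramble* control lentivirus (2 libraries), and RNA was taken with Trizol after 24 h in serum-containing medium. Both groups carried a lentiviral hairpin vector, with drug selection named in the methods, and each group is an infected population rather than a clone. *Rhox6* encodes a homeobox protein of the X chromosome, and the question of the comparison was which genes respond to its knockdown in mESCs. *Rhox6* is not one of the 920 genes, so its level, and with it the labels, was not checked here. The labels give no hairpin for the *Rhox6* shRNA libraries, and the deposited table heads the authors' mean of both libraries Sh1.

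The table holds only genes that the authors' own test had picked as changed between these same libraries. The 26 genes are therefore the members of these families that passed that call, not all members of the families, and a change in each of them is a condition of being listed. For each gene and library the table gives a normalized expression level, in a unit that is not named, without read counts, so the sequencing depth is unknown. The levels were compared on the log2(level + 1) scale with limma, and p-values were adjusted over the 920 genes by the Benjamini-Hochberg method. Differences on this scale are *Rhox6* shRNA minus *scramble*, and they understate the fold change of genes at low levels. Separate cultures are not stated for the libraries of either group, and the p-values may then reflect technical spread only. The p-values also reuse the libraries behind the authors' call, so they are not independent support for a change. Adjustment over called genes only gives no usable false discovery rate. An exact permutation test of 2 libraries against 2 cannot go below p = 0.333. In bulk RNA, fewer cells of a type and less RNA per cell cannot be told apart.

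Cells move solutes across membranes with carriers, channels and pumps. Carriers of the SLC families bind a solute and change shape, often driven by a sodium or proton gradient. Channels open a pore through which ions run down their gradient, and pumps spend ATP to build those gradients. ABC transporters also use ATP, mostly to export lipids and conjugated compounds. Many channels and receptors of these families are best known from neurons, sensory cells, stomach or kidney.

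Of the 26 genes, 9 rose and 17 fell in *Rhox6* shRNA mESCs at a limma adjusted p under 0.05. Over all 920 listed genes 96.6% passed this threshold, with 53.7% higher and 42.9% lower. The median log2 difference of the 26 genes was −0.75, against 0.56 over all listed genes. Unchanged genes are not listed, so the sign of each median follows the direction that holds more genes. The balance between the directions was not tested, since the members were listed for having changed. In none of the 26 genes did the groups overlap, and over all listed genes 98.4% did not overlap. With the further limit of a log2 difference of at least 1 in either direction, 7 were higher and 7 were lower, against 30.8% and 17.1% of all listed genes. These counts shift with the scaling, in the 26 genes and over all listed genes. When each library was scaled to the same total over the listed genes, which moved the median of all listed genes by −0.12, the direction of all 26 genes was kept, and 1 gene was higher and 11 were lower past the log2 limit. The same scaling gave 146 higher and 254 lower genes over all 920 listed genes, against 283 and 157 without it. They also depend on single libraries, with 4 higher genes without *scramble* replicate 2, and 4 higher and 4 lower genes without *Rhox6* shRNA replicate 2. Over all listed genes there were 264 higher genes in the first case, and 262 higher and 147 lower genes in the second.

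**Figure D1:**
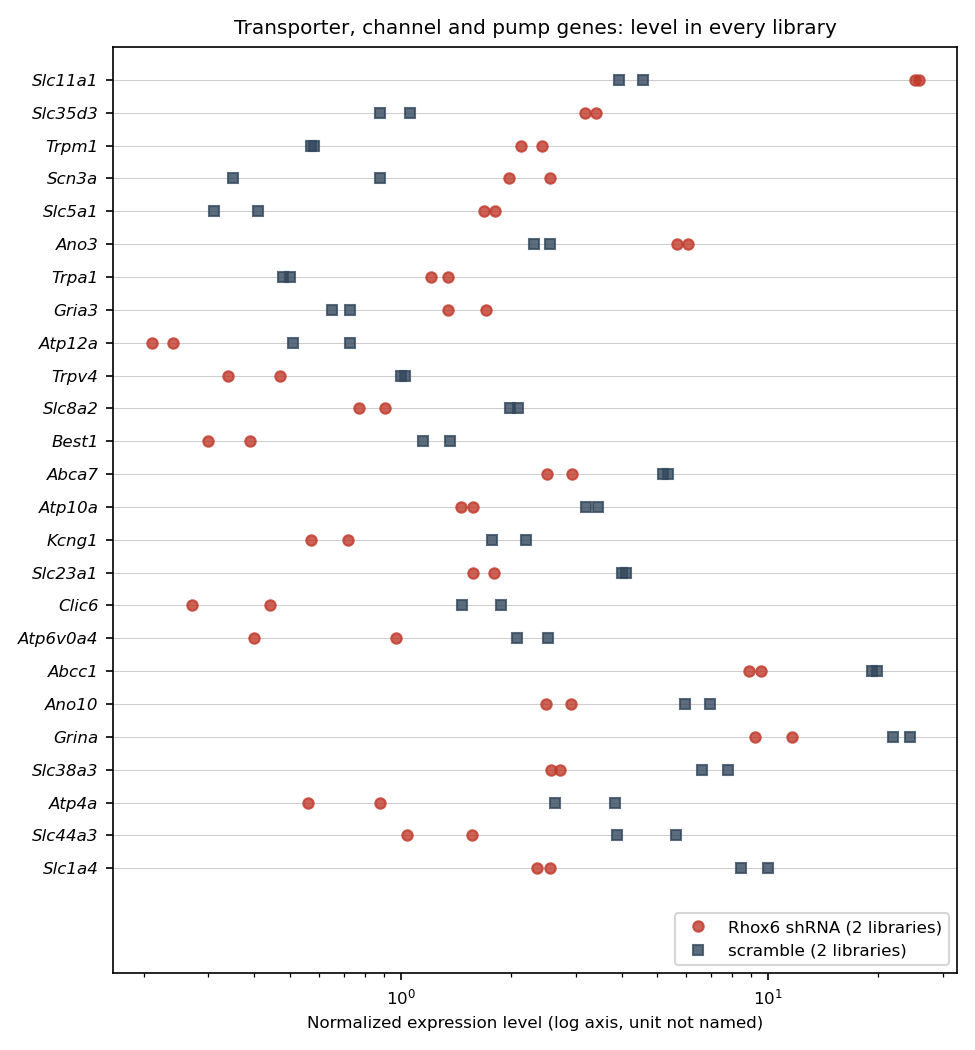
Normalized expression level (log axis, unit not named) of 25 of the 26 genes in the 2 *Rhox6* shRNA libraries (red circles) and the 2 *scramble* libraries (dark squares), ordered by the difference of log2(level + 1). No gene drawn has overlapping groups; *Slc11a1*, at the top, stands at 25.14 and 25.74 in the *Rhox6* shRNA libraries and 3.94 and 4.56 in the *scramble* libraries.

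By class, the 9 SLC carriers went both ways, with 4 higher and 5 lower. The 9 channels that are not ligand-gated also split into 4 higher and 5 lower. Both ABC transporters and all 4 pumps were lower, beside 42.9% of all listed genes. These classes hold too few genes to show a family pattern, and no class was tested. The remaining genes were the glutamate receptor gene *Gria3*, which was higher, and *Grina*, which was lower. *Grina* was taken by its name only. It encodes a membrane protein once described as associated with NMDA receptors and is no receptor subunit.

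**Figure D2:**
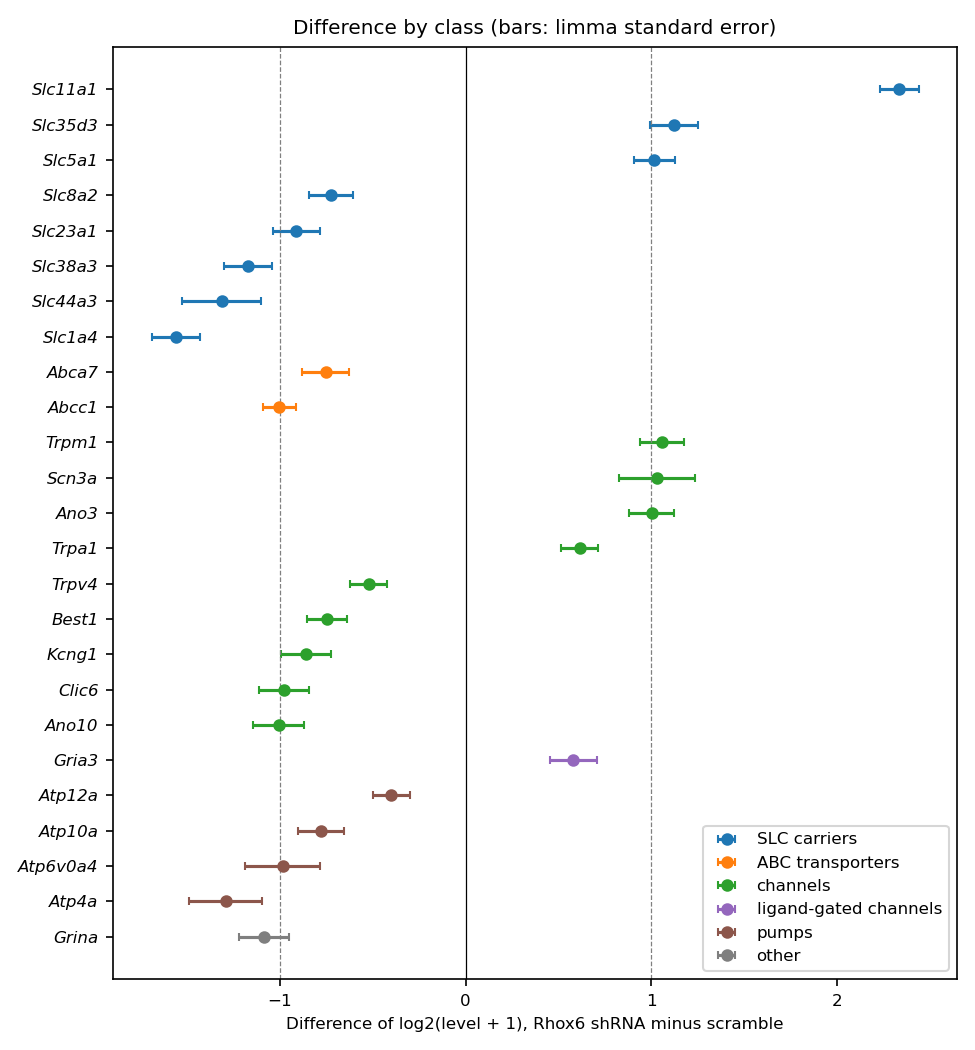
Difference of log2(level + 1), *Rhox6* shRNA minus *scramble*, of 25 of the 26 genes by class, with limma standard errors as bars and dashed lines at 1 in each direction. The 4 pumps and the 2 ABC transporters lie left of 0, whereas SLC carriers and channels lie on both sides.

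*Slc11a1*, on chromosome 1, had the largest rise of the 26 genes and the fifth highest log2 difference of all listed genes. It encodes a proton-coupled carrier of divalent metals, best known from the phagosome membrane of macrophages, where it moves iron and manganese. Its level was 25.14 and 25.74 in the *Rhox6* shRNA libraries, against 3.94 and 4.56 in the *scramble* libraries. Both *Rhox6* shRNA libraries lay far above both *scramble* libraries, with a ratio of the mean levels of 5.99. On the log2(level + 1) scale the rise was 2.33 (limma adjusted p = 0.000149, standard error 0.10), and it stayed between 2.25 and 2.42 when any 1 library was left out. Of 17 genes in a list of iron uptake, storage and export, *Slc11a1* was the only listed one. The nearest listed gene was *Catip*, which lies 5.87 kb away and was higher as well, at 13.85 and 14.29 in the *Rhox6* shRNA libraries and 3.54 and 3.66 in the *scramble* libraries.

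The amino acid carriers *Slc1a4* and *Slc38a3* both fell. *Slc1a4*, on chromosome 11, encodes an exchanger of alanine, serine, cysteine and threonine, and had the largest fall of the 26 genes. Its level was 2.56 and 2.35 in the *Rhox6* shRNA libraries, against 8.43 and 10 in the *scramble* libraries. The higher *Rhox6* shRNA library was at less than the level of either *scramble* library, and the mean was 3.75-fold lower. The difference on the log2(level + 1) scale was −1.56 (limma adjusted p = 0.000489, standard error 0.13), and between −1.67 and −1.45 when any 1 library was left out. *Slc1a4* was the only listed one of 10 amino acid carrier genes that are induced by the stress-response factor ATF4. *Slc38a3* encodes a sodium-coupled carrier of glutamine, histidine and asparagine. It was at 2.71 and 2.57 in the *Rhox6* shRNA libraries and at 7.8 and 6.62 in the *scramble* libraries, a log2 difference of −1.17 (standard error 0.13, limma adjusted p = 0.000947).

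The promoter windows of *Slc1a4* and *Slc11a1* are given here. *Slc1a4* was chosen as the listed gene of the ATF4-induced carriers whose window holds a motif searched for. Its match is thus part of how it was chosen. *Slc11a1* was chosen for the largest absolute log2 difference of the 26 genes. RefSeq promoter windows (GRCm38.p6, 250 bases before to 50 after an annotated start) were at hand for 15 of the 26 genes. They were searched on both strands for TGATGNAA, the core of the element bound by ATF4, and for ACGTG, the core of the element bound by the hypoxia-inducible factor. The *Slc1a4* window lies at chr11:20332664-20332963 on the minus strand and the *Slc11a1* window at chr1:74374953-74375252 on the plus strand, each printed 5′ to 3′ along its gene. Capitals mark a match to TGATGNAA on the reverse strand, which starts at base 247 of the *Slc1a4* window. The *Slc11a1* window held neither motif.
Slc1a4: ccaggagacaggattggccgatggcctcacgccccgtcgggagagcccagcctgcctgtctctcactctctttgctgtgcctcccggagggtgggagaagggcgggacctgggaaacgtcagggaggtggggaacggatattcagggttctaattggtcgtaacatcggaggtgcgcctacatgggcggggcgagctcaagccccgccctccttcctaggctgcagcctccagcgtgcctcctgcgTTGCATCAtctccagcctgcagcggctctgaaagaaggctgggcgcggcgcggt
Slc11a1: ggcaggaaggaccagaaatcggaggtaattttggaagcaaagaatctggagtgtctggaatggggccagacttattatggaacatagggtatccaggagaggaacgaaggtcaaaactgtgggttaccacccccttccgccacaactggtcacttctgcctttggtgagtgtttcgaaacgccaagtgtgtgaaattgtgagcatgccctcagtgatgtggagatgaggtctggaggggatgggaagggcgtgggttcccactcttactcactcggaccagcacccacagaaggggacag

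A match to TGATGNAA was present in 1 of the 17 windows of the 15 genes, that of *Slc1a4*, and in 3.97% of all 32851 RefSeq promoter windows. ACGTG was present in 4 of the 17 windows, those of *Ano3*, *Slc35d3*, *Slc5a1* and *Trpm1*, and in 19.6% of all windows. These matches describe the letters of the windows and say nothing of binding in these cells. None of 4 hypoxia-induced glucose and lactate carrier genes was listed.

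Other carriers rose, among them those of glucose and of nucleotide sugars. *Slc5a1*, which encodes the sodium-glucose cotransporter of the intestinal brush border, was at 1.81 and 1.69 in the *Rhox6* shRNA libraries and at 0.41 and 0.31 in the *scramble* libraries. Its ratio of mean levels was 4.86, whereas the log2 difference was 1.02, because the *scramble* level is below the added 1. *Slc35d3*, of a family that carries nucleotide sugars into the Golgi and endoplasmic reticulum, was at 3.18 and 3.4 in the *Rhox6* shRNA libraries and at 0.88 and 1.06 in the *scramble* libraries, a log2 difference of 1.12.

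A choline transporter-like gene and carriers of vitamin C and of calcium fell. *Slc44a3*, of the choline transporter-like family, was at 1.57 and 1.04 in the *Rhox6* shRNA libraries and at 5.64 and 3.88 in the *scramble* libraries. Its libraries were spread within both groups, and the log2 difference of −1.31 (standard error 0.21, limma adjusted p = 0.00269) ranged from −1.54 to −1.09 when 1 library was left out. *Slc23a1*, which encodes a sodium-dependent carrier of ascorbate, was at 1.8 and 1.58 in the *Rhox6* shRNA libraries and at 4.1 and 4.01 in the *scramble* libraries, a log2 difference of −0.91. *Slc8a2*, a sodium-calcium exchanger of neurons, averaged 0.84 ± 0.099 in *Rhox6* shRNA cells and 2.04 ± 0.071 in *scramble* cells (SD, n = 2 each).

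Both listed ABC transporters fell. *Abcc1* encodes a multidrug resistance protein that exports glutathione conjugates and leukotrienes. It was at 9.57 and 8.88 in the *Rhox6* shRNA libraries and at 19.16 and 19.79 in the *scramble* libraries. The groups stood well apart, and *Abcc1* had a log2 difference of −1.002 (limma adjusted p = 0.000575, standard error 0.090). *Abca7*, a transporter of phospholipids, was at 2.93 and 2.51 in the *Rhox6* shRNA libraries and at 5.35 and 5.18 in the *scramble* libraries, with a log2 difference of −0.75.

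The 4 pumps fell. *Atp4a*, on chromosome 7, encodes the catalytic subunit of the gastric proton-potassium pump, which acidifies the stomach. Its level was 0.88 and 0.56 in the *Rhox6* shRNA libraries, against 3.84 and 2.63 in the *scramble* libraries. The mean was 4.49-fold lower, with a log2 difference of −1.29 (limma adjusted p = 0.00224, standard error 0.20). *Atp12a*, which encodes the nongastric form of the same pump, averaged 0.225 ± 0.021 in *Rhox6* shRNA cells and 0.62 ± 0.16 in *scramble* cells (SD, n = 2 each). It had the smallest difference of the 26 genes, −0.40 (standard error 0.10, limma adjusted p = 0.0118), and did not pass without *Rhox6* shRNA replicate 2 (−0.38, limma adjusted p = 0.0568). *Atp6v0a4* encodes a subunit of the vacuolar proton pump that is known from acid-secreting cells of the kidney. It was at 0.97 and 0.4 in the *Rhox6* shRNA libraries and at 2.52 and 2.07 in the *scramble* libraries. The *Rhox6* shRNA libraries were 0.49 apart on the log2 scale, the widest gap between libraries of 1 group among the 26 genes, and the log2 difference of −0.99 did not pass without *scramble* replicate 1 (−0.89, limma adjusted p = 0.0583). *Atp10a*, which encodes a P-type ATPase that flips phospholipids, averaged 1.52 ± 0.085 in *Rhox6* shRNA cells and 3.32 ± 0.18 in *scramble* cells (SD, n = 2 each).

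Within the TRP channels, 2 genes rose and 1 fell. *Trpm1*, a channel of melanocytes and of retinal ON bipolar cells, was at 2.13 and 2.43 in the *Rhox6* shRNA libraries and at 0.57 and 0.58 in the *scramble* libraries. Its log2 difference was 1.06 (limma adjusted p = 0.00101, standard error 0.12). *Trpa1*, the irritant sensor of sensory neurons, was at 1.35 and 1.21 in the *Rhox6* shRNA libraries and at 0.48 and 0.5 in the *scramble* libraries, a log2 difference of 0.61. *Trpv4*, an osmotically and mechanically sensitive channel of epithelia, averaged 0.405 ± 0.092 in *Rhox6* shRNA cells and 1.01 ± 0.021 in *scramble* cells (SD, n = 2 each).

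The chloride channel and anoctamin group also held both directions. The anoctamins are membrane proteins that act as calcium-activated chloride channels or lipid scramblases. *Ano3* was at 5.67 and 6.08 in the *Rhox6* shRNA libraries and at 2.56 and 2.31 in the *scramble* libraries, a log2 difference of 1.00 (standard error 0.12, limma adjusted p = 0.00122). *Ano10* was at 2.92 and 2.49 in the *Rhox6* shRNA libraries and at 5.96 and 6.94 in the *scramble* libraries, a log2 difference of −1.01 (standard error 0.14, limma adjusted p = 0.00164). The 2 anoctamins thus moved in opposite directions by about the same amount. *Clic6*, of a family of chloride intracellular channel proteins, was at 0.44 and 0.27 in the *Rhox6* shRNA libraries and at 1.88 and 1.47 in the *scramble* libraries, with a mean 4.72-fold lower. *Best1*, the calcium-activated chloride channel of the retinal pigment epithelium, averaged 0.345 ± 0.064 in *Rhox6* shRNA cells and 1.25 ± 0.15 in *scramble* cells (SD, n = 2 each). It lies 0.036 kb from *Rab3il1*, which was lower too, at 1.44 and 1.22 in the *Rhox6* shRNA libraries and 4.05 and 4.23 in the *scramble* libraries.

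Channels of excitable cells were among the listed genes. *Scn3a* encodes a voltage-gated sodium channel that is prominent in embryonic neurons. It was at 1.98 and 2.55 in the *Rhox6* shRNA libraries and at 0.88 and 0.35 in the *scramble* libraries. The *scramble* libraries were more than 2-fold apart, so the log2 difference of 1.03 (standard error 0.20, limma adjusted p = 0.00536) ranged from 0.79 to 1.27 when 1 library was left out. *Gria3*, which encodes an AMPA receptor subunit and lies on chromosome X, was at 1.71 and 1.35 in the *Rhox6* shRNA libraries and at 0.73 and 0.65 in the *scramble* libraries, a log2 difference of 0.58 (limma adjusted p = 0.0073). *Kcng1*, a potassium channel subunit that forms no channel by itself and modifies those of another family, averaged 0.645 ± 0.11 in *Rhox6* shRNA cells and 1.99 ± 0.30 in *scramble* cells (SD, n = 2 each). *Grina*, taken by its name only, is not counted among these channels. It was at 11.63 and 9.23 in the *Rhox6* shRNA libraries and at 24.41 and 21.93 in the *scramble* libraries. Its log2 difference was −1.09 (limma adjusted p = 0.00128, standard error 0.13).

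**Figure D3:**
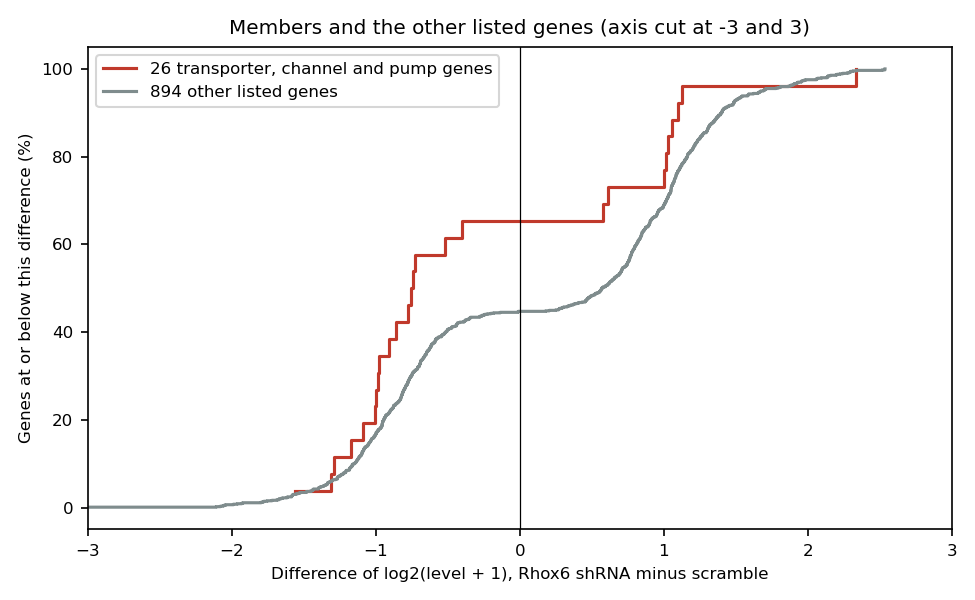
Cumulative share of genes by the difference of log2(level + 1), *Rhox6* shRNA minus *scramble*, for the 26 transporter, channel and pump genes (red) and the 894 other listed genes (grey). At a difference of 0 the red line is at 17 of 26 genes and the grey line at 399 of 894 genes; the flat stretch around 0 follows from the listing of called genes.

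The 26 genes were compared with the other listed genes by their size of change and their spread. Their median absolute log2 difference was 1.00, against 0.98 for the 894 other listed genes. The *Rhox6* shRNA libraries had a median gap of 0.11 on the log2 scale for the 26 genes and 0.13 for the other listed genes. The *scramble* libraries had a median gap of 0.14 for both sets. The 9 higher and 17 lower mean levels stand beside 495 higher and 399 lower mean levels of the other listed genes. A mean level above 10 in either group was reached by 4 of the 26 genes, *Slc11a1*, *Abcc1* and *Grina* among them, against 26.8% of the other listed genes.

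**Figure D4:**
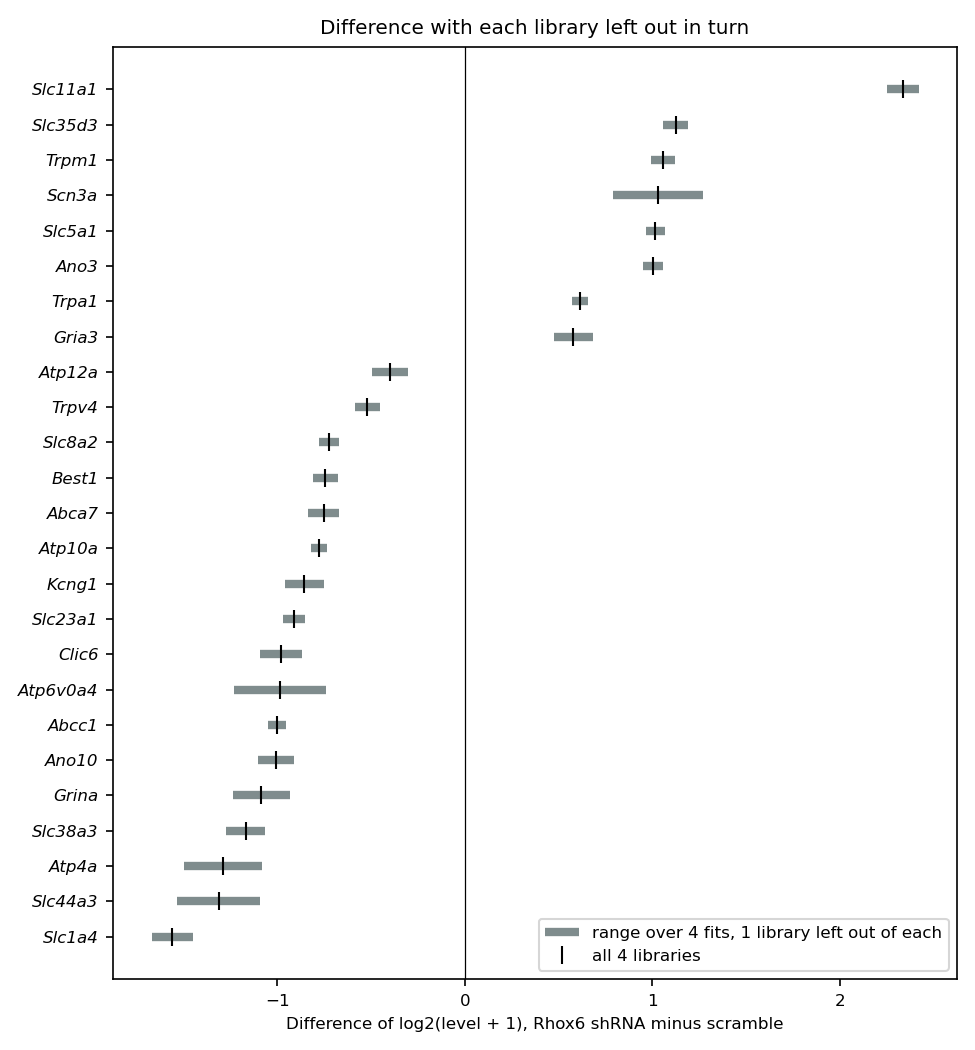
Difference of log2(level + 1), *Rhox6* shRNA minus *scramble*, of 25 of the 26 genes with all 4 libraries (black ticks) and its range over 4 fits that each leave out 1 library (grey bars). No bar crosses 0; the bar of *Slc11a1* runs from 2.25 to 2.42 and that of *Atp6v0a4* from −1.23 to −0.74.

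Transport genes that the name rule does not take were looked up too. Of 104 symbols of other channels and transporters, 4 were listed. The share of all genes that was listed is unknown, so this count cannot be called low or high. *Rhcg*, which encodes an ammonia channel of epithelia, was at 1.5 and 1.47 in the *Rhox6* shRNA libraries and at 0.84 and 0.13 in the *scramble* libraries, and it rose by 0.79 on the log2 scale (limma adjusted p = 0.0249). The acid-sensing channel gene *Asic1* fell by 0.52, *Lrrc8b*, a subunit of volume-regulated anion channels, by 0.66, and the endolysosomal cation channel gene *Mcoln3* by 0.47 on the log2 scale. None of 20 gap junction genes was listed. Of the 27 role groups into which the families were sorted, 16 held a listed member, and groups such as the mitochondrial carriers, the aquaporins, the voltage-gated calcium channels and the mitochondrial ATP synthase held none. Listing required the authors' call, so the level and any change of unlisted genes were not analysed here.

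The cell type could be checked only through called genes. Over all listed genes 53.7% were higher and 42.9% lower at a limma adjusted p under 0.05. Of 16 mESC markers 5 were listed and all 5 were higher, and *Pou5f1* and *Sox2* were not among the 920 genes. The summed level of the 5 was 497 and 512 in the *Rhox6* shRNA libraries and 192 and 188 in the *scramble* libraries. Of 14 neuronal markers, *Gap43* and *Nefl* rose and *Elavl3* and *Syp* fell, with sums of 23.1 and 21.9 in the *Rhox6* shRNA libraries and 16.3 and 16.8 in the *scramble* libraries. Of 12 primitive endoderm markers, *Cubn*, *Dab2* and *Gata6* were listed and fell, with sums of 6.64 and 7.21 in the *Rhox6* shRNA libraries and 27.9 and 29.6 in the *scramble* libraries. Of 12 trophoblast markers 3 were listed, and 1 rose and 2 fell. Their sums, which mix both directions, were 13.2 and 10.9 in the *Rhox6* shRNA libraries and 29.8 and 31.3 in the *scramble* libraries. Of 12 fibroblast markers *Vim* rose, at 195 and 177 in the *Rhox6* shRNA libraries and 80.99 and 93.53 in the *scramble* libraries. The part of any other cell type in the values of the 26 genes was not tested.

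Some of the 26 genes share sequence with a neighbor in the GENCODE M21 annotation. Exons of *Atp6v0a4* overlap those of *D630045J12Rik* on the same strand and of *Tmem213* on the opposite strand. Exons of *Ano3* overlap those of *Muc15*, and exons of *Atp12a*, *Slc44a3* and *Trpm1* overlap those of a gene not annotated as coding, each on the opposite strand. Exons of *Gria3* overlap the miRNA gene *Gm22413* on the same strand. Whether the counting used strand is not given in the sources used here, and reads of such pairs may not be told apart.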

How the data were processed

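RNA-seq of 46C mESCs was analysed, with 2 *Rhox6* shRNA and 2 *scramble* libraries grouped by their labels. The authors deposited 1 table of 920 called genes with a normalized signal per library, called the level here. The sources used here give neither its unit nor the counter or annotation. Bowtie 0.12.2 and mm9 are named, without a role, in the submitters' processing notes. The authors' deposited mean level per group and their own fold change (a ratio), its log2 value and their p-values were not used. Depth is unknown, so no counting error could be given.

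A pseudocount of 1 was added before log2, and the groups were compared by limma 3.58.1 (R 4.3.3) using a variance trend and adjustment over 920 genes, with no filter on low levels. The script was tested on simulated data in which most genes were unchanged, unlike the listed genes. That test checks the code and not the error rate in these data. Alternatives were a pseudocount of 0.1, a minimum level of 1, scaling to equal sums, a replicate block, no variance trend, and leaving out each library. Per-library levels are given for genes with a mean level of at least 5 in either group and for the 10 largest differences in each direction. Of the 26 genes, 1 is not reported here by name and is not drawn singly, but it is in the counts and medians. Gene places come from GENCODE M21 (GRCm38), promoters from RefSeq. The 26 genes, the lists and the naming rule were chosen with earlier results of these data known. The role groups of *Atp10a* and *Grina* were corrected after their symbols were seen.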

Additional observations from a re-analysis of the deposited data

How the results depend on the processing

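The 9 higher genes were called under each alternative run. The 17 lower genes numbered 16 to 17 when 1 library was left out and 16 when only genes with a mean level of at least 1 were kept, which removes *Atp12a*. The other counts at an adjusted p under 0.05 did not change, and no gene changed direction. All these runs reuse the libraries behind the authors' call, so a kept call or direction was close to fixed by the listing. It is no independent support for a change. Over all listed genes 96.6% passed in the main run. Their higher and lower counts also moved little with a pseudocount of 0.1 or without a variance trend, so under these settings the stability is not special to the 26 genes. When any 1 library was left out, fewer of all listed genes passed in each direction. Whether the 26 genes differ from the other listed genes in this was not tested. The median log2 difference of the 26 genes, −0.75, was −1.14 with a pseudocount of 0.1, −0.95 with libraries scaled to equal sums, and −0.80 to −0.68 when 1 library was left out. The counts past a log2 difference of 1, which were 7 higher and 7 lower, moved more. They were 9 higher and 16 lower with a pseudocount of 0.1, which shrinks low levels less, and 1 higher and 11 lower with scaled libraries, and ranged from 4 to 7 higher and 4 to 9 lower when 1 library was left out. Over all 920 listed genes the counts past this limit were 283 higher and 157 lower, 473 and 340 with a pseudocount of 0.1, and 146 and 254 with scaled libraries. With the replicate number as a block, the counts were 9 and 17, and 7 and 7 past the log2 limit. The correlation of the deviations of same-numbered libraries was −0.044 over the 920 genes, and with 2 libraries a group the numbers do not establish pairs. Without counts, the depth behind levels below 1 is unknown.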

Other observations

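The 26 genes lie on 15 chromosomes, with 4 of them, *Atp4a*, *Atp10a*, *Slc8a2* and *Trpm1*, on chromosome 7. For 6 of the 26 genes the nearest listed gene was within 100 kb, and in these 6 pairs both genes moved in the same direction. Over all listed genes with a place in the annotation, 215 of 247 such nearest neighbors (87%) moved in the same direction. The pairs are *Best1* with *Rab3il1*, *Slc11a1* with *Catip*, *Clic6* with *Runx1*, *Abca7* with *Kiss1r*, *Slc35d3* with *Map3k5*, and *Slc38a3* with *Zmynd10*. They were described after the values were seen, and the share was not tested.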
